A study of Homo sapiens with 6 samples.

Results

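The genes described here are 51 genes of mitosis: the kinases and cyclins that start it, the spindle assembly checkpoint, the kinetochore, the chromosomal passenger complex, the motors and spindle proteins, the machinery of anaphase and cytokinesis, and the condensins and topoisomerase that shape the chromosomes. FOXM1 and MKI67, a transcription factor and a marker of dividing cells, are included. The members were listed by symbol and function, with earlier results of these data known. All 51 were found among the 23180 gene symbols of the RNA-Seq table. RNA was sequenced from A549 cells, an established line from a human lung adenocarcinoma that the labels give as wild type, all at passage 11. The 3 siControl samples received a control siRNA and the 3 siKMT9α samples an siRNA against KMT9α, and, per the study's methods, both were transfected at 65 nM, the siRNA was siKMT9α#1 and RNA was taken on day 3. KMT9α is the catalytic subunit of a histone methyltransferase and is encoded by N6AMT1, with TRMT112 as its partner KMT9β. The comparison asks which transcripts changed upon KMT9α knock-down in 1 cell line with 1 siRNA, so a change of KMT9α and any other effect of this siRNA cannot be told apart.

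A cell enters mitosis when CDK1 bound to a B-type cyclin is switched on by CDC25 phosphatases. PLK1 and the Aurora kinases then build the spindle, kinesins move and shorten its microtubules, and kinetochores fasten each chromosome to it. Until every kinetochore is attached, BUB and MAD proteins hold back CDC20, the activator of the ubiquitin ligase APC/C. Once released, APC/C has securin and cyclin B degraded, separase cuts cohesin, and the cell divides. Most of these genes are transcribed mainly in G2 and M phase. In quiescent or G1 cells the DREAM complex keeps them low, and later B-Myb and FOXM1 with the MuvB core activate them, through a promoter element named CHR together with CCAAT boxes bound by NF-Y. Because many tumour cells cycle, these genes are widely used as proliferation markers in lung adenocarcinoma.

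The promoters show motifs that many of the members share and that the list did not use. RefSeq windows of GRCh38.p14, from 250 bases before to 50 after a start site, were held for 43 of the 51 genes. AURKA, BIRC5, BUB3, FOXM1, RACGAP1, TPX2, TTK and UBE2C had none. The CHR was searched as TTTGAA and as a second spelling, TTCGAA, and the CCAAT box as CCAAT, each on both strands. Other spellings of the CHR were not searched. On the other strand the first spelling reads TTCAAA and the CCAAT box reads ATTGG. Below are 100 bases of selected genes, from 70 before to 29 after the start, on the gene's own strand, with CHR and CCAAT matches in capitals. The first 4 have a CHR just before the start and rose more than 2-fold.
PLK1, chr16:23678819-23678918, plus strand: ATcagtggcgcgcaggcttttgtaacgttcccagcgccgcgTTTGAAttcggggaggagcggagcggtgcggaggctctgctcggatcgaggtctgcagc
CCNB2, chr15:59105076-59105175, plus strand: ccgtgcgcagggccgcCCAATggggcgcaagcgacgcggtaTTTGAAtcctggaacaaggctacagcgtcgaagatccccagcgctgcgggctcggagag
BUB1B, chr15:40160999-40161098, plus strand: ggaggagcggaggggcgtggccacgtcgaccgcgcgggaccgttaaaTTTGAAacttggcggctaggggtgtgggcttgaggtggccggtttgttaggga
CDCA8, chr1:37692446-37692545, plus strand: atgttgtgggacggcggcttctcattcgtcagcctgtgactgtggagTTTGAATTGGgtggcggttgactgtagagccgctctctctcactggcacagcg

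In PLK1 the capitals at the left edge are the end of a CCAAT that begins before the stretch, and in CDCA8 a CHR and a CCAAT on the other strand overlap by 1 base. The next 4 come from a kinetochore gene, a motor, separase and a spindle protein, to show the motifs across functions. In DLGAP5 the CHR follows the start, and in CENPA the CCAAT matches lie further upstream than the stretch.
CENPA, chr2:26785986-26786085, plus strand: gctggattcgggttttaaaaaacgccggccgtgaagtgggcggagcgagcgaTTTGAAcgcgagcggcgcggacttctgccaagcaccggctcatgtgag
KIF4A, chrX:70290034-70290133, plus strand: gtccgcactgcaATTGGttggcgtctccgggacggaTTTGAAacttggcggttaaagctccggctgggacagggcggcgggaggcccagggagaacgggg
ESPL1, chr12:53268229-53268328, plus strand: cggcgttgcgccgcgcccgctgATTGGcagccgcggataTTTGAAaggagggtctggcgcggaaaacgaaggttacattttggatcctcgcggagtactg
DLGAP5, chr14:55191556-55191655, minus strand: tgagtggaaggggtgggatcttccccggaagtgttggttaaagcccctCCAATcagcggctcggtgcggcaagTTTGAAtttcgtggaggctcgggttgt

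The last 3 are contrasts. HMMR carries both motifs and was the gene that did not pass the test. CCNB1 and KIF2C have neither of the searched CHR spellings in the window and rose.
HMMR, chr5:163460562-163460661, plus strand: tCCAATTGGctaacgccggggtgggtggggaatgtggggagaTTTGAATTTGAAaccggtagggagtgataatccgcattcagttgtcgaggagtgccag
CCNB1, chr5:69167080-69167179, plus strand: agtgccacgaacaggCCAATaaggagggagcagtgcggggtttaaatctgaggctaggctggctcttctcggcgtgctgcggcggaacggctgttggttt
KIF2C, chr1:44739767-44739866, plus strand: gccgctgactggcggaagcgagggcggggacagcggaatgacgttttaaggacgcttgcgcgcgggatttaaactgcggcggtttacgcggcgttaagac

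A match to either CHR spelling was found in 34 of the 43 genes (79.1%). The shares were 19.5% of the 27305 genes with a window and 15.6% of the 10314 genes that were also tested by RNA-Seq. A CCAAT was found in 33 (76.7%), against 39.7% and 42.9%. Both motifs occurred in 27 (62.8%), against 9.02% and 8.47%. A TATA box, searched as TATAAA on the gene's strand or the other, was found in 2 of 43 (4.65%), against 14.0% and 8.44%. This count is too small to be read as a difference. The CHR matches lay close to the start: 34 of 50 (68.0%) had their middle from 50 bases before to 49 after it, with a median distance of -26 bases, against 27.8% of the 6751 CHR matches in all windows. CCAAT lay further upstream, with a median distance of -73 bases, and 56 of 79 matches (70.9%) had their middle from 110 to 11 bases before the start, against 46.6% of 17577. A match is a description of letters and not a site of binding. Some genes have several start sites, and a match in overlapping windows was counted in each of them.

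**Figure D1:**
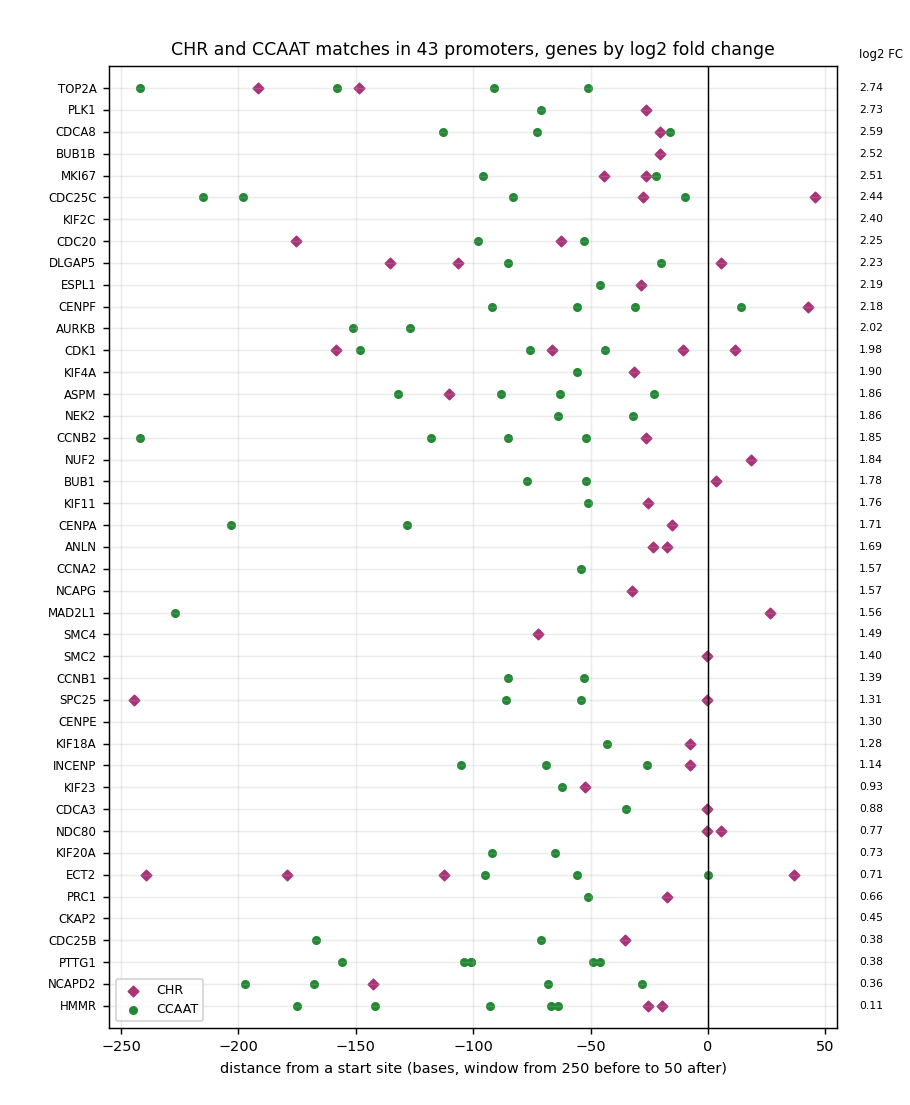
Positions of CHR (diamonds) and CCAAT (circles) matches in the RefSeq windows of the 43 genes with a window, 1 gene per line in order of log2 fold change (siKMT9α over siControl, printed at the right), against the distance in bases from a start site. Matches of CHR gather near 0 and those of CCAAT to the left of it along the whole height of the plot, from TOP2A at 2.74 to HMMR at 0.11.

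The 51 genes rose almost without exception upon KMT9α knock-down. Counted together, they took 1067, 1080 and 1060.0 CPM (counts per 1000000, scaled by TMM factors) in the siControl samples and 2303, 2305 and 2234 CPM in the siKMT9α#1 samples. By the quasi-likelihood test of edgeR, with p-values adjusted by Benjamini and Hochberg's method over the 13877 genes tested, 50 of the 51 (98.0%) were higher with an adjusted p under 0.05, 0 were lower, and HMMR did not pass. Many other genes changed as well. Of all genes tested, 75.6% passed this test, 37.1% as higher and 38.5% as lower, so the calls of the members are read by their direction and size and not by their number alone. The median log2 fold change of the members was 1.56, with a range of 0.11 to 2.74, and that of all genes tested was -0.01. A more than 2-fold rise with an adjusted p under 0.05 was seen in 37 members (72.5%) and in 10.1% of all genes tested. Since the members were chosen with earlier results of these data known, these contrasts describe the list and do not test it. All siKMT9α#1 samples lay above all siControl samples in 50 members, and the groups did not overlap, in either direction, in 77.0% of all genes. In bulk RNA, more cells in G2 and M phase and more of these transcripts per cell cannot be told apart. By flow cytometry of the same cell line after knock-down, the study reports no significant shift between cell cycle phases on any day measured. The study also reports a longer population doubling time after knock-down. How these measurements relate to the rise of the transcripts was not tested.

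At a stricter threshold, P under 1e-08 with a log2 fold change beyond 0.26 in either direction, 38 members (74.5%) were higher and 0 were lower, against 13.5% and 10.7% of all genes tested. These shares over all genes depend on the test: the likelihood-ratio test of edgeR put 3086 genes higher and 2876 lower, against 1878 and 1479 here. The threshold is that of the study's methods, and the test used for it there was not named. The 13 members short of it were HMMR, RACGAP1, BUB3, NCAPD2, PTTG1, CDC25B, CKAP2, KIF20A, NDC80, CDCA3, CENPE, SPC25 and CENPA. Some of them, such as BUB3 and CDC25B, were abundant and rose little, and others, such as CENPA, SPC25 and CENPE, rose more than 2-fold from a few CPM, with larger errors. With 3 against 3 samples, the smallest two-sided exact permutation p of 1 gene is 0.1, and the 50 genes without overlap were at this value.

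**Figure D2:**
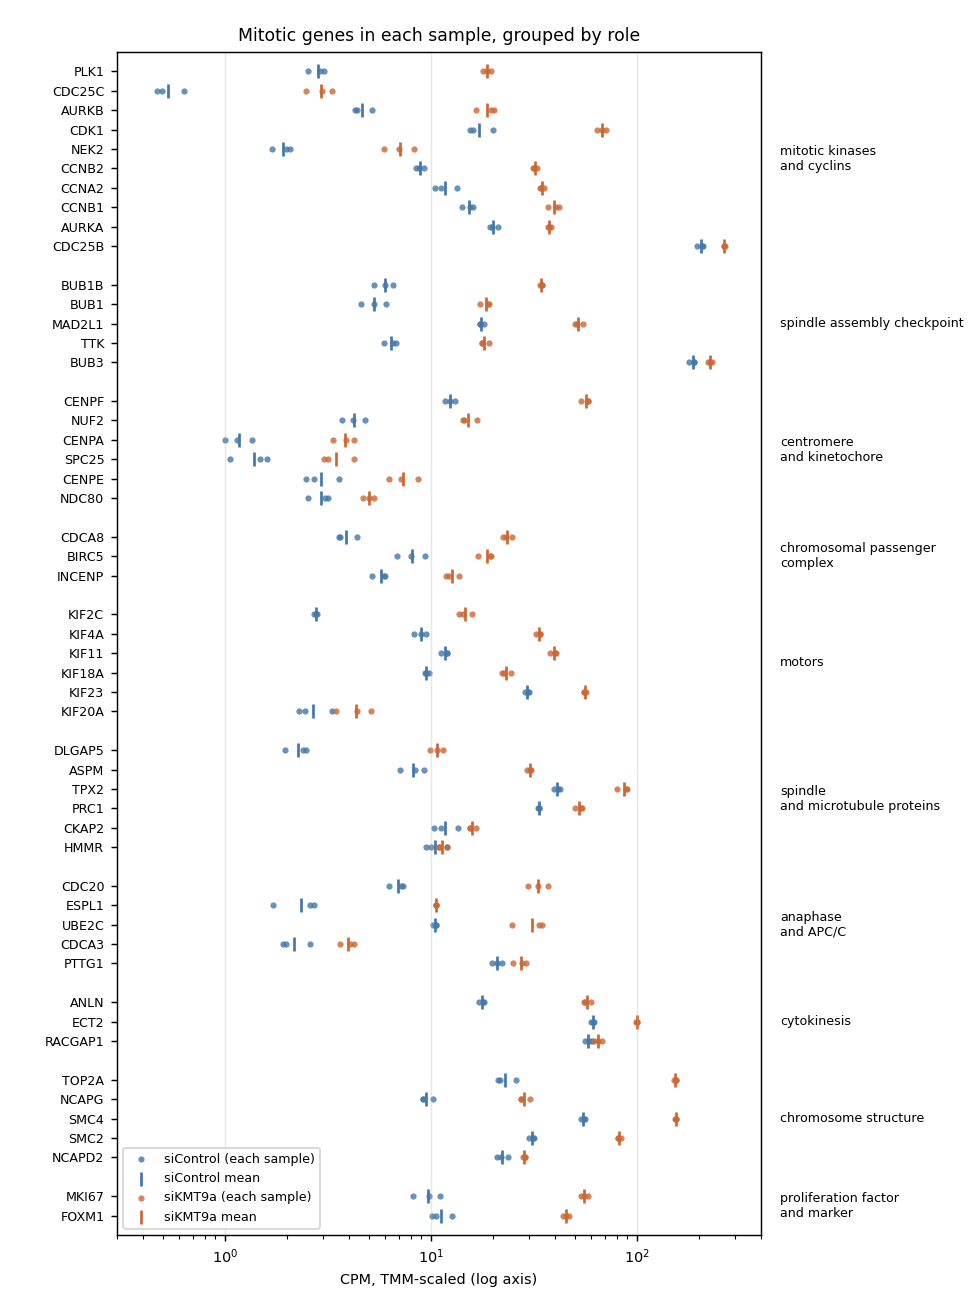
CPM (TMM-scaled, log axis) of the 51 genes in each of the 3 siControl (blue points) and 3 siKMT9α#1 (orange points) samples, grouped by role, with a vertical tick at each group's mean. The orange points lie to the right of the blue ones in 50 genes, by the widest margins for TOP2A and PLK1, and the points of HMMR overlap.

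The mitotic kinases and cyclins rose in 10 of 10 genes, with a median log2 fold change of 1.86, and 8 of them rose more than 2-fold. PLK1 (deposited span chr16:23690201-23701688, hg19), the Polo-like kinase needed from mitotic entry to cytokinesis, was at 2.55, 3.03 and 2.91 CPM with siControl (replicates 1, 2 and 3, the order kept from here on) and 19.7, 18.9 and 17.9 CPM with siKMT9α#1. The groups were far apart, and its log2 fold change was 2.73 (standard error, SE, 0.11, adjusted p = 4.97e-14 by the edgeR quasi-likelihood test). CDK1 (chr10:62538212-62554610), the kinase that drives entry, was at 16.0, 20.1 and 15.6 CPM with siControl and 68.2, 70.9 and 64.0 CPM with siKMT9α#1. All CDK1 values after knock-down exceeded 3 times those of any control sample, and the log2 fold change was 1.98 (SE 0.08, adjusted p = 3.42e-14). CCNB1 (chr5:68462837-68474070), its cyclin B1 partner, was at 16.1, 15.6 and 14.2 CPM and then at 37.0, 40.5 and 42.1 CPM. It rose less than its kinase, with a log2 fold change of 1.39 (SE 0.07, adjusted p = 2.82e-12) and no overlap. Per kb of transcript, the ratio of CCNB1 to CDK1 was 0.793 ± 0.106 (SD, n = 3) with siControl and 0.521 ± 0.053 with siKMT9α#1.

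The Aurora kinases differed in size of change. AURKB (chr17:8108049-8113883), the kinase of the chromosomal passenger complex, was at 4.30, 5.19 and 4.37 CPM with siControl and 20.3, 19.6 and 16.6 CPM with siKMT9α#1, a log2 fold change of 2.02 (SE 0.11, adjusted p = 5.75e-12). AURKA (chr20:54944445-54967351), which acts at centrosomes and spindle poles, was at 21.3, 19.8 and 19.5 CPM and then at 38.2, 37.5 and 37.1 CPM, a log2 fold change of 0.90 (SE 0.07, adjusted p = 3.16e-10). Neither gene overlapped between groups, and the samples of each group stood close together. NEK2, a centrosomal kinase, had a log2 fold change of 1.86, CCNB2 (cyclin B2) of 1.85 and CCNA2 (cyclin A2) of 1.57. The span of CCNA2 overlaps EXOSC9, and how the counting shared reads between overlapping genes is not stated.

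The smallest and nearly the largest change of this role belonged to phosphatases that activate CDK1. CDC25B (chr20:3776401-3786761) was at 196.9, 209.0 and 210.5 CPM with siControl and 269.4, 264.7 and 265.8 CPM with siKMT9α#1. It was abundant already in the control, and its log2 fold change was 0.38 (SE 0.05, adjusted p = 5.06e-07 by the edgeR quasi-likelihood test). CDC25C rose from 0.533 ± 0.091 to 2.93 ± 0.423 CPM (SD, n = 3 each), with a log2 fold change of 2.44 (SE 0.24), from the lowest level of all 51 genes. Its counts were 12, 8 and 9 with siControl and 44, 34 and 57 with siKMT9α#1. It met the low-count filter of the test only through the siKMT9α#1 samples. Its rise was thus part of the reason that it was tested, and the counts of higher members include it.

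All 5 genes of the spindle assembly checkpoint rose, with a median log2 fold change of 1.56, and 4 of them rose more than 2-fold. BUB1B (chr15:40453210-40513337), which encodes BUBR1 of the mitotic checkpoint complex, was at 6.58, 5.31 and 6.03 CPM with siControl and 34.8, 34.7 and 34.1 CPM with siKMT9α#1. The knock-down samples agreed to within 1 CPM, and the log2 fold change was 2.52 (SE 0.09, adjusted p = 3.75e-15). BUB1 (chr2:111395409-111435684), a kinase of unattached kinetochores, went from 6.11, 4.57 and 5.30 CPM to 18.9, 19.3 and 17.4 CPM. MAD2L1 (chr4:120980579-120988013), which encodes the CDC20 inhibitor MAD2, went from 18.3, 17.3 and 17.4 CPM to 50.2, 54.7 and 51.6 CPM. Both rose without overlap, with log2 fold changes of 1.78 (SE 0.11, adjusted p = 1.43e-11) and 1.56 (SE 0.06, adjusted p = 5.83e-14). TTK, the MPS1 kinase at the head of the checkpoint, had a log2 fold change of 1.49.

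BUB3 (chr10:124913760-124924886), the adaptor that binds BUB1 and BUBR1 to the kinetochore, was the exception in size. Its values were 189.9, 190.7 and 180.6 CPM with siControl and 227.3, 231.4 and 222.9 CPM with siKMT9α#1. The groups did not overlap, but the log2 fold change was only 0.28 (SE 0.05, adjusted p = 1.99e-05 by the edgeR quasi-likelihood test). Per kb of transcript, BUB1B stood at 0.024 ± 0.003 of BUB3 with siControl and at 0.113 ± 0.001 with siKMT9α#1 (SD, n = 3 each). The longest annotated 3′ UTR of BUB3 holds 1 site for the seed of siKMT9α#1, described with the other sites at the end of these results. That UTR, at 6632 bases, is longer than the whole counted transcript, at 2749 bases. The site is thus not shown to lie in the counted transcript.

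Kinetochore genes rose in 6 of 6, with a median log2 fold change of 1.51. CENPF (chr1:214776532-214837914), a large outer kinetochore and corona protein, was at 13.2, 11.7 and 12.4 CPM with siControl and 58.1, 58.0 and 53.9 CPM with siKMT9α#1. It had the largest change of the role, a log2 fold change of 2.18 (SE 0.07, adjusted p = 1.56e-15). CENPA (chr2:27008882-27017455), the histone H3 variant that marks centromeres, was at 1.01, 1.36 and 1.14 CPM and then at 4.23, 3.36 and 3.87 CPM, a log2 fold change of 1.71 (SE 0.19, adjusted p = 1.72e-07). The groups of CENPA were separate in spite of the low level. NUF2 had a log2 fold change of 1.84, SPC25 of 1.31 and CENPE, the kinetochore motor, of 1.30.

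NUF2, NDC80 and SPC25 encode 3 of the 4 subunits of the NDC80 complex, which holds microtubules, and they did not rise equally. NDC80 (chr18:2571510-2616634) was at 3.19, 3.09 and 2.55 CPM with siControl and 5.29, 4.68 and 5.02 CPM with siKMT9α#1. It was the least changed kinetochore gene, without overlap, at a log2 fold change of 0.77 (SE 0.15, adjusted p = 0.000118 by the edgeR quasi-likelihood test). Per kb, the ratio of NUF2 to NDC80 was 1.25, 1.47 and 2.04 in the siControl samples and 2.95, 3.92 and 3.16 in the siKMT9α#1 samples, so that the ratio itself did not overlap between the groups. The fourth subunit, SPC24, had too few counts to be tested.

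In the chromosomal passenger complex, which corrects wrong attachments and later marks the midzone, 3 of 3 genes rose more than 2-fold. CDCA8 (chr1:38158159-38175391), or borealin, was at 4.41, 3.58 and 3.64 CPM with siControl and 24.9, 23.3 and 22.4 CPM with siKMT9α#1. INCENP (chr11:61891445-61920635), the scaffold, was at 5.20, 5.93 and 6.03 CPM and then at 11.9, 13.7 and 12.3 CPM. Both were without overlap, with log2 fold changes of 2.59 (SE 0.10, adjusted p = 3.92e-14) for CDCA8 and 1.14 (SE 0.11, adjusted p = 1.19e-08) for INCENP. BIRC5, which encodes survivin, had a log2 fold change of 1.20. The ratio of CDCA8 to INCENP per kb went from 1.23 ± 0.257 to 3.35 ± 0.341 (SD, n = 3 each).

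The motors rose in 6 of 6 genes, with a median log2 fold change of 1.52. KIF2C (chr1:45205490-45233438), the MCAK kinesin that depolymerises microtubules at centromeres, was at 2.76, 2.72 and 2.81 CPM with siControl and 15.9, 14.3 and 13.8 CPM with siKMT9α#1. This was the largest change among the motors, at 2.40 (SE 0.12, adjusted p = 8.23e-13 by the edgeR quasi-likelihood test). KIF11 (chr10:94352825-94415152), the Eg5 kinesin that pushes the spindle poles apart, was at 12.0, 12.0 and 11.2 CPM and then at 40.1, 37.9 and 40.7 CPM, a log2 fold change of 1.76 (SE 0.07, adjusted p = 4.78e-14). Its groups stood far apart. KIF4A, a chromokinesin, had a log2 fold change of 1.90, KIF18A, which dampens chromosome movement, of 1.28, and KIF23, the centralspindlin motor, of 0.93.

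KIF20A (chr5:137514417-137523404), a kinesin of the midzone, was the least changed motor, at 2.44, 3.33 and 2.29 CPM with siControl and 3.48, 4.38 and 5.13 CPM with siKMT9α#1. The lowest knock-down sample was only just above the highest control sample, and the log2 fold change was 0.73 (SE 0.18, adjusted p = 0.00133). The span of KIF20A overlaps CDC23, whose summed count over the 6 samples was 11882.5 against 348.5 for KIF20A and whose own log2 fold change was -0.44. Whether reads of CDC23 entered the KIF20A count was not tested.

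**Figure D3:**
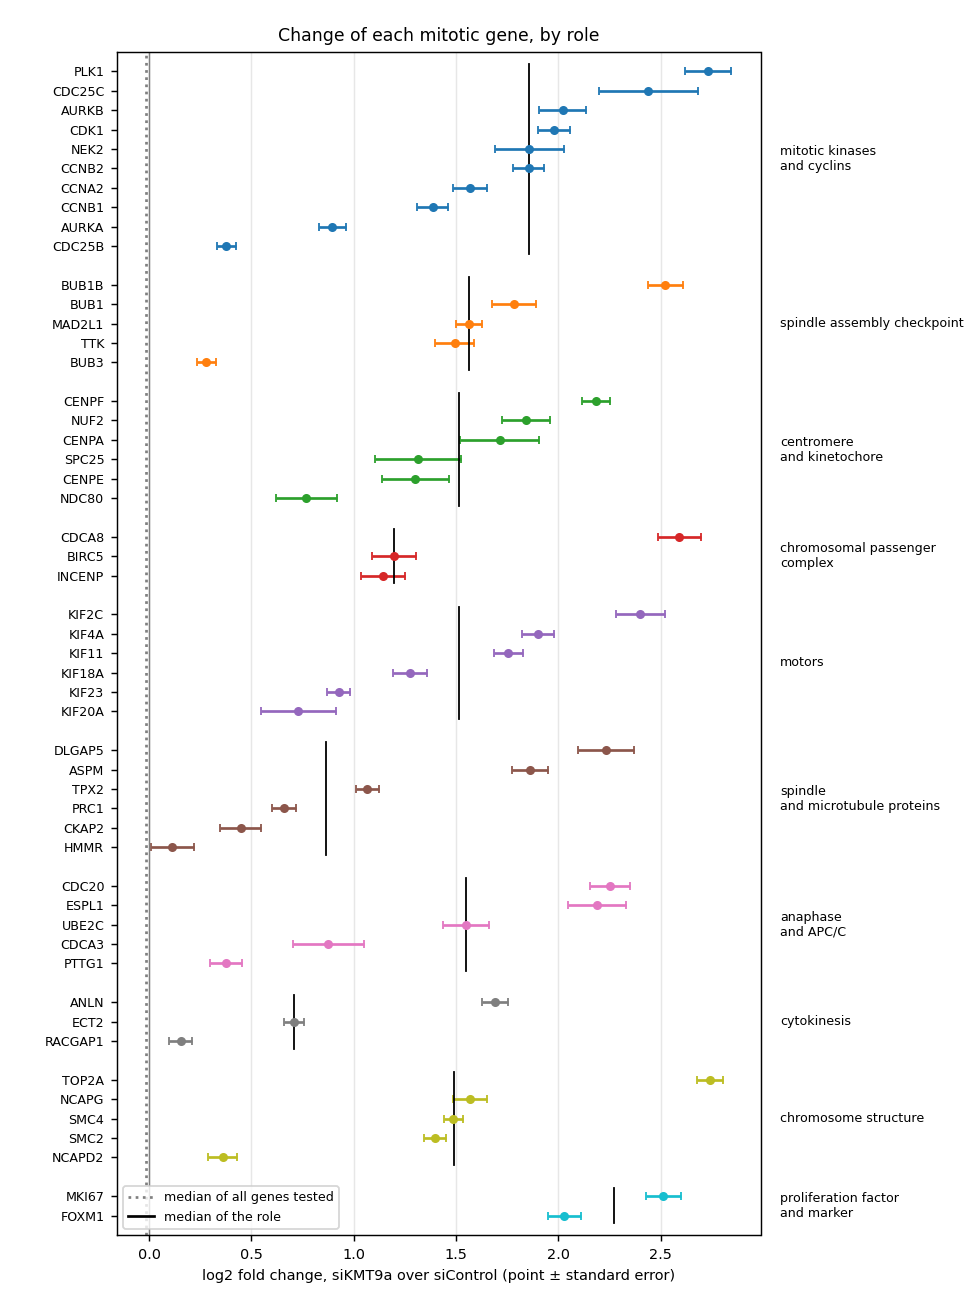
Log2 fold change (siKMT9α#1 over siControl, points) with its standard error (bars) for the 51 genes, grouped by role, with a black line at the median of each role and a dotted line at the median of all genes tested, -0.01. In the roles of 3 or more genes, the medians run from 0.71 in cytokinesis to 1.86 in kinases and cyclins, and the bar of HMMR comes closest to 0.

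The spindle and microtubule proteins had a lower median, 0.86, with 5 of 6 genes higher. DLGAP5 (chr14:55614834-55658396), or HURP, which stabilises kinetochore fibres, was at 1.96, 2.47 and 2.39 CPM with siControl and 10.7, 11.5 and 9.94 CPM with siKMT9α#1, a log2 fold change of 2.23 (SE 0.14, adjusted p = 1.72e-11). ASPM, a protein of the spindle poles, had a log2 fold change of 1.86, and TPX2, the activator of AURKA, of 1.07. PRC1, which bundles midzone microtubules, was at 0.66 and CKAP2 at 0.45, so the members ranged from a more than 4-fold rise to small changes. HMMR (chr5:162887517-162918953), a microtubule-binding protein of the poles also known as RHAMM, was at 10.1, 12.0 and 9.46 CPM with siControl and 11.0, 12.0 and 11.0 CPM with siKMT9α#1. Its groups overlapped, and the log2 fold change of 0.11 (SE 0.10, 95% normal interval -0.09 to 0.32) had an adjusted p of 0.332 by the edgeR quasi-likelihood test and a two-sided exact permutation p of 0.4. The interval leaves room for no change and for a small rise, and its upper end lies far below the median of the members. HMMR has 4 listed transcripts, and the largest summed count was shared by more than 1 of them.

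All 5 genes of anaphase and the APC/C were higher, with a median log2 fold change of 1.55. CDC20 (chr1:43824626-43828873), the APC/C activator that the checkpoint holds back, was at 7.33, 6.30 and 7.17 CPM with siControl and 37.0, 33.3 and 29.9 CPM with siKMT9α#1, a log2 fold change of 2.25 (SE 0.10, adjusted p = 1.05e-13 by the edgeR quasi-likelihood test). PTTG1 (chr5:159848865-159855746), the securin that restrains separase, was at 21.0, 22.2 and 19.9 CPM and then at 29.2, 27.8 and 25.1 CPM. Its log2 fold change was 0.38 (SE 0.08, adjusted p = 0.000195), small but without overlap, and near-identical copies of PTTG1 elsewhere in the genome make its count uncertain. Separase itself, ESPL1, rose from 2.35 ± 0.548 to 10.6 ± 0.048 CPM (SD, n = 3 each), with a log2 fold change of 2.19. UBE2C, the E2 enzyme of the APC/C, had a log2 fold change of 1.55, and CDCA3, a trigger of mitotic entry that the APC/C degrades, of 0.88.

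Cytokinesis was the role with the lowest median, 0.71 over 3 genes. ANLN (chr7:36429432-36493400), anillin of the contractile ring, was at 18.2, 18.0 and 17.2 CPM with siControl and 55.9, 55.5 and 60.3 CPM with siKMT9α#1, a log2 fold change of 1.69 (SE 0.06, adjusted p = 1.78e-14). The span of ANLN overlaps KIAA0895. ECT2, the exchange factor that activates RhoA, had a log2 fold change of 0.71 at a high and even level, 61.3 ± 1.14 against 100.2 ± 0.613 CPM (SD, n = 3 each). RACGAP1 (chr12:50382945-50419307), the partner of KIF23 in centralspindlin, was at 60.5, 58.6 and 55.9 CPM and then at 68.2, 64.7 and 62.2 CPM. It had the smallest change that passed, 0.15 (SE 0.06, adjusted p = 0.017 by the edgeR quasi-likelihood test), and no overlap. With library sizes not scaled by TMM its log2 fold change was 0.05 (adjusted p = 0.430), with GC offsets 0.10 (0.0924), without siControl replicate 3 0.14 (0.0752) and without siKMT9α#1 replicate 1 0.12 (0.0807), so that this call was lost.

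The chromosome structure genes rose in 5 of 5. TOP2A (chr17:38544773-38574202), the topoisomerase that untangles sister chromatids, was at 25.9, 21.3 and 21.7 CPM with siControl and 152.1, 155.4 and 154.8 CPM with siKMT9α#1. Its log2 fold change of 2.74 (SE 0.06, adjusted p = 2.05e-17 by the edgeR quasi-likelihood test) was the largest of the 51 genes. NCAPD2 (chr12:6603298-6641132), a HEAT-repeat subunit of condensin I, was at 21.0, 23.7 and 21.9 CPM and then at 28.7, 28.6 and 28.0 CPM, without overlap, at 0.36 (SE 0.07, adjusted p = 0.000119). NCAPG, another condensin I subunit, had a log2 fold change of 1.57, and the ratio of NCAPG to NCAPD2 per kb went from 0.441 ± 0.044 to 1.02 ± 0.053 (SD, n = 3 each). The core ATPases SMC2 and SMC4 kept much more even proportions, with log2 fold changes of 1.40 and 1.49 and a ratio per kb of 0.483 ± 0.001 with siControl and 0.453 ± 0.005 with siKMT9α#1.

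FOXM1 (chr12:2966847-2986321), the transcription factor that activates many of the genes above, was at 10.2, 12.7 and 10.6 CPM with siControl and 45.5, 47.1 and 43.8 CPM with siKMT9α#1, a log2 fold change of 2.03 (SE 0.08, adjusted p = 2.57e-14 by the edgeR quasi-likelihood test). MKI67 (chr10:129894925-129924468), which encodes the Ki-67 protein that coats mitotic chromosomes, was at 9.77, 8.21 and 11.1 CPM and then at 58.4, 55.3 and 53.8 CPM, a log2 fold change of 2.51 (SE 0.08, adjusted p = 2.56e-15). For both, every knock-down sample was above 3 times the highest control sample. The 6 ratios between partners given above were chosen after the counts had been seen and were not tested as a family.

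Members with higher levels in siControl tended to change less. Per kb of transcript, the median change of the 10 members highest in siControl was 0.68 (log2) and 4 of them rose more than 2-fold, while the other 41 had a median of 1.71 and 33 of them did. BUB3 was highest, at 68.0 CPM per kb, followed by CDC25B at 56.4, PTTG1 at 30.0, RACGAP1 at 18.4 and ECT2 at 15.9, and these 5 rose by 0.71 or less on the log2 scale. MAD2L1 at 12.4, SMC4 at 10.9 and CDK1 at 9.09 CPM per kb were also among the highest and rose more than 2-fold. Across the 51 genes, log2 CPM per kb in siControl and log2 fold change had a Pearson's r of -0.551 and a Spearman's rho of -0.509, given as a description, since genes share the same 6 libraries and the siControl level enters both measures.

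**Figure D4:**
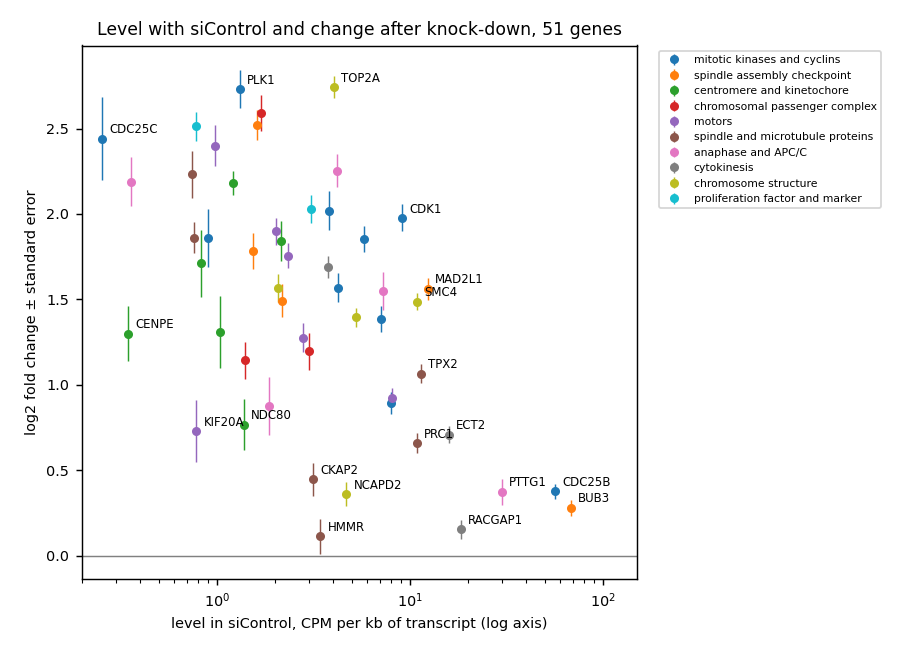
Log2 fold change with its standard error (vertical axis) against the level in siControl in CPM per kb of transcript (log axis) for the 51 genes, coloured by role. The genes with the highest levels, BUB3, CDC25B, PTTG1 and RACGAP1, sit at the lower right below 0.4, and low changes at moderate levels are seen for HMMR, NCAPD2 and CKAP2.

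The promoter motifs can be set beside the changes. The median log2 fold change was 1.73 in the 34 members with a match to either searched CHR spelling, with 33 higher (97.1%). The 9 without such a match (CCNB1, CCNA2, AURKB, CENPE, KIF20A, KIF2C, PTTG1, NEK2 and CKAP2) had a median of 1.39, with 9 higher. Since other spellings were not searched, these 9 are not shown to lack a CHR. Both groups spanned a wide range, from 0.11 to 2.74 and from 0.38 to 2.40, and the difference was not tested. Among the other genes tested, the 1570 with such a match had a median of 0.04 and 40.0% were higher. The 8701 without one had a median of -0.02 and 36.9% were higher. Outside the list, the genes with and without the searched letters thus lay close together. How many of these 1570 genes carry a working CHR was not tested, so their median does not describe CHR genes as a class.

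Other genes of the same processes, in 11 lists of 150 genes that do not include the members, moved in both directions. Of the 149 tested, 92 were higher, 36 lower and 21 did not pass, with a median log2 fold change of 0.48, and 43 rose more than 2-fold. Against these counts stand 37.1% of all genes tested as higher and 38.5% as lower. Of the spindle proteins and kinesins, 15 of 18 were higher and 1 lower, with a median of 1.25. KIF18B, a kinesin of astral microtubules, rose from 0.841 ± 0.213 to 8.42 ± 0.456 CPM (SD, n = 3 each), with a log2 fold change of 3.33 (adjusted p = 2.36e-12 by the edgeR quasi-likelihood test), above any member. KNSTRN, the small kinastrin of the spindle, fell from 23.3 ± 0.390 to 10.5 ± 0.959 CPM, a log2 fold change of -1.15.

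Chromatid cohesion and condensation moved mostly up. Of 15 cohesin and shugoshin genes, 13 were higher and 1 lower, with a median of 0.91, from CDCA5 (sororin) at 2.06 to the acetyltransferase ESCO1 at -0.38. Of the 4 other condensin subunits, 3 were higher and 1 did not pass, with a median of 1.28 and NCAPD3 of condensin II at 1.71. In the list of the centrosome and centriole, 11 of 15 were higher and 3 lower (median 0.87), from PLK4, the kinase that starts centriole duplication, at 2.12 to CDK5RAP2 at -0.55. Regulators of mitotic entry and exit were higher in 14 of 18 and lower in 2 (median 0.52), from the kinase PBK at 2.59 to ENSA, a phosphatase inhibitor, at -0.15.

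Kinetochore lists were divided. In the inner kinetochore (the constitutive centromere network and CENPA loading factors), 12 of 17 were higher and 2 lower, with a median of 0.48, from the CENPA chaperone HJURP at 1.65 to CENPK at -0.43. In the outer kinetochore and SKA list, 8 of the 16 tested were higher and 6 lower, with a median of 0.28. Over all genes tested, 37.1% were higher and 38.5% lower, so the share of this list that fell was near that of all genes. SKA3, of the complex that tracks microtubule ends, rose from 1.70 ± 0.033 to 10.9 ± 0.745 CPM (SD, n = 3 each), with a log2 fold change of 2.67, while PMF1 of the MIS12 complex was at -0.75.

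The APC/C subunits and regulators moved in both directions. Of 17 genes, 4 were higher, 8 lower and 5 did not pass, with a median of -0.15. Of all genes tested, 37.1% were higher and 38.5% lower. ANAPC13, a small structural subunit, fell from 88.8 ± 0.489 to 22.1 ± 2.74 CPM (SD, n = 3 each), with a log2 fold change of -1.99 (SE 0.07, adjusted p = 4.29e-15 by the edgeR quasi-likelihood test), and FBXO5, the inhibitor EMI1, rose by 1.21. In the MuvB, B-Myb and pocket protein list, 5 of 11 were higher and 4 lower, with a median of 0.08. MYBL2, which encodes B-Myb, rose from 5.75 ± 0.520 to 21.1 ± 1.02 CPM, a log2 fold change of 1.87, and LIN37, a MuvB subunit of the repressive DREAM complex, fell from 35.1 ± 3.53 to 12.0 ± 1.23 CPM, a log2 fold change of -1.56.

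The lists of general cell structure moved in both directions, with medians close to that of all genes tested, -0.01. Nuclear envelope and lamina genes were higher in 4 of 9 and lower in 4 (median -0.09), from LMNB1 at 0.91 to TMPO at -1.09. Tubulins were higher in 3 of 9 and lower in 5 (median -0.12), from TUBA1C at 0.70 to TUBB2B at -1.50, and tubulin counts are uncertain because the genes share long stretches of sequence.

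**Figure D5:**
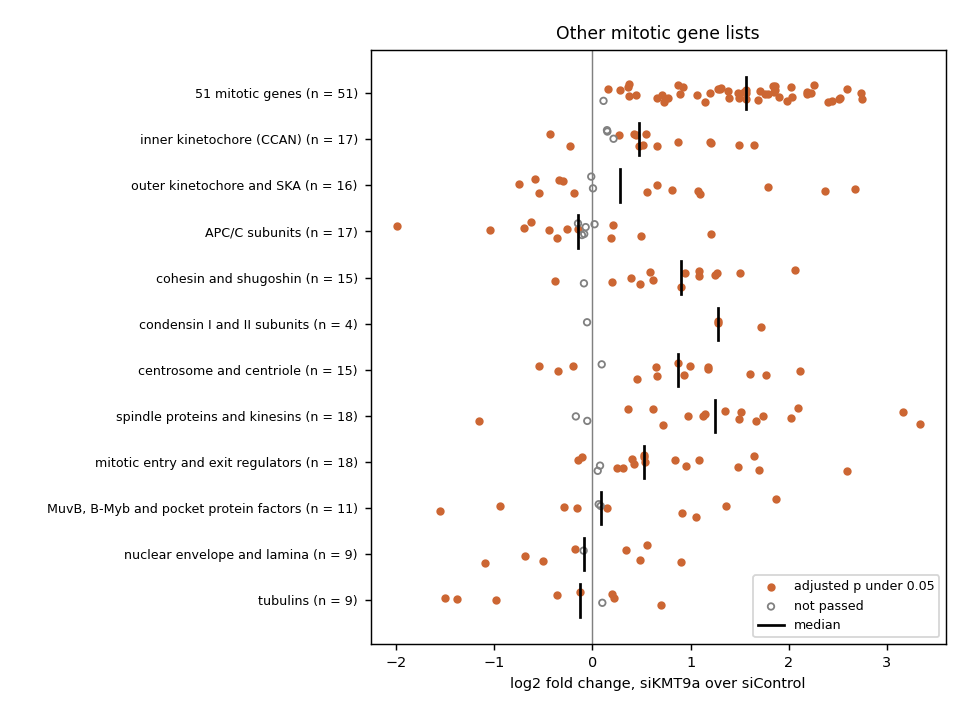
Log2 fold change (siKMT9α#1 over siControl) of the 51 mitotic genes and of 11 further lists, 1 point per gene, filled where the adjusted p is under 0.05 and open where it is not, with a black line at each median (vertical position within a list is random spread only). The 51 genes lie right of 0, while APC/C subunits, nuclear envelope genes and tubulins are spread over both sides.

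N6AMT1, the target, was at 10.2, 10.8 and 11.5 CPM with siControl and 2.87, 3.21 and 3.35 CPM with siKMT9α#1, a log2 fold change of -1.77 (SE 0.12, adjusted p = 1.42e-10 by the edgeR quasi-likelihood test). Library totals, with 1 transcript per gene, were 15551780 to 18568634 with siControl and 13740098 to 19832394.5 with siKMT9α#1. Of the 5 epithelial markers, KRT8, KRT18, KRT19 and EPCAM were lower and CDH1 higher after knock-down, and their summed level was 3212 to 3574 CPM with siControl and 1724 to 1814 CPM with siKMT9α#1. The part of this shift in the results was not tested. Markers of other cell types were scarce: of the leukocyte markers, CD3E was at 0 in all 6 samples, PTPRC was at most 0.105 CPM, and CD14 was at 3.66, 3.76 and 3.22 CPM with siControl and 1.70, 1.90 and 2.17 CPM with siKMT9α#1. The 3 endothelial markers summed to at most 0.802 CPM and the 4 fibroblast markers to at most 4.94 CPM, both lower after knock-down. CDKN2A, which A549 cells lack through a deletion, had 0 counts in all 6 samples.

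An siRNA can also lower transcripts that pair with guide bases 2 to 8. For siKMT9α#1 the complementary letters in a 3′ UTR are ACATTCA. Of the members, CCNA2, CENPE, CKAP2 and BUB3 hold 1 such site each in the longest annotated 3′ UTR (GRCh37), and all 4 were higher, with a median log2 fold change of 0.87, against 1.57 for the 47 without a site. Over all genes tested, the 1958 with a site had a median of -0.15 and the 10894 without it a median of 0.00. The lower median came from BUB3 at 0.28 and CKAP2 at 0.45, while CENPE was at 1.30 and CCNA2 at 1.57. The longest UTR can belong to a transcript other than the one counted, as it does for BUB3. The part of the sites in these values was not tested.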

How the data were processed

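RNA-Seq was compared between 3 siControl and 3 siKMT9α samples of A549 cells. The authors used STAR for alignment (genome hg19) and HOMER for counting over RefSeq transcripts. The deposited values are estimated counts, not normalized, in steps of 0.5 (36.4% were not whole). Per the file headers, the deposited table also holds a fold change and p-values from the authors' comparison, and the transcript length. The comparison columns were not used. Counting options and strand are not given in the sources used here. Of 38767 rows, 1182 without a symbol or counts were left out. Each symbol was represented by the transcript with the largest summed count (23 members had more than 1, up to 6).

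Counts were rounded and tested with edgeR 4.0.16 in R 4.3.3 (TMM, filterByExpr, quasi-likelihood F test, two-sided, Benjamini-Hochberg over 13877 genes). The biological coefficient of variation was 4.47%. CPM are TMM-scaled. The standard error is the log2 fold change divided by the root of F. That the replicates are separate cultures is given only as "biological replicate", so p-values measure the spread between these samples. Replicates differed by more than sampling noise (chi-square per gene 1.33 to 5.00). Same-numbered samples did not deviate together (correlations -0.08, 0.02 and -0.08).

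Members and lists were chosen with earlier results of these data known. Named genes were 14 widely studied members, the largest and smallest change per role, any member that did not pass or went against the others, and the largest change in each direction per further list. Spans of 10 members overlap another gene: ANLN, BUB1B, CCNA2, FOXM1, KIF18A, KIF20A, NCAPD2, NCAPG, PLK1 and SMC4. Promoters came from RefSeq. Protein sequences and the proteome were not analysed here, and 1 leukocyte marker is not reported here. Alternatives were RLE factors, library size alone, likelihood-ratio and exact tests, DESeq2 1.42.0, other filters, the second transcript, a replicate block, each sample left out and, added after results were known, GC offsets.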

Additional observations from a re-analysis of the deposited data

How the results depend on the processing

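Wherever a member was tested, its direction was kept, and RACGAP1 lost its call under the 4 settings given in the results. The filter of at least 10 counts in every sample left CDC25C out, so that 49 members were higher there. With the library size alone, the median of all genes tested moved by -0.11 (log2) and that of the members was 1.46. This scaling turned the split at P below 1e-08 from 1878 higher and 1479 lower genes to 1516 higher and 1862 lower, while 35 members were higher and 0 lower there. The number of all genes past this threshold rose to 3086 higher and 2876 lower with the likelihood-ratio test, 3071 and 2853 with the exact test and 3184 and 2886 without the low-count filter. It fell to 1400 and 926 without siKMT9α#1 replicate 2 and to 1368 and 974 with the replicate block. Leaving out each sample in turn gave 49 to 50 members higher and 0 lower, 34 to 39 higher past P below 1e-08, a median of 1.52 to 1.58, 10003 to 10312 of all genes called, and 91 to 94 higher and 32 to 35 lower genes in the further lists.

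The replicate numbers share no stated litter, batch or day. With the replicate number as a block, 50 members were higher and 0 lower, 33 were past P below 1e-08, the median was 1.56, and 10229 of all genes were called. The block changed no other call of a member. The errors of the lowest genes, such as CDC25C and CENPA, are limited by their few counts, and all results rest on 1 cell line, 1 siRNA and 3 samples per group.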
